A study of Homo sapiens with 10 samples.

Results

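The ribosome biogenesis factors described here were 46 genes given by name, whose products are nucleolar proteins that process ribosomal RNA and assemble the subunits of the ribosome. Of the 46 genes, 41 had a probe that the annotation assigned to them, and 40 were kept because at least 1 probe reached a detection score of 0.99 on at least 1 array. The score runs from 0 to 1 and ranks a probe's signal against negative control beads. The 40 genes were read by 41 of the 14018 kept probes, 1 for each gene but GAR1, which had 2 and is described by the brighter. No probe was annotated to NOP58, WDR43, RRP1B, GNL3 or EBNA1BP2, so their expression is not described here. The probe of TSR1 was below the detection score on all 10 arrays, with a signal between 66.9 and 83.3.

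Messenger RNA was measured in MDA-MB-435, a human melanoma cell line, on 10 Illumina Human-8 BeadChips, with 2 arrays in each of 5 groups that the design describes as biological duplicates. The groups were untreated cells, cells given hepatocyte growth factor (HGF, the ligand of the MET receptor) for 1, 6 or 24 h, and cells transduced with the integrin subunit beta-4 (ITGB4) so that they carried more of it stably. No vector-transduced group and no untreated group at each time of sampling were among the 10 arrays, so time in culture and HGF cannot be told apart, and neither can transduction and ITGB4. The arrays detected between 10226 and 11899 probes, and the correlation of duplicate arrays lay between 0.976 and 0.989. The arrays fell into 2 kinds by the 25th percentile of the detection score over all probes, which was 0.00814 to 0.0225 on replicate 1 of the untreated and HGF groups (low-score arrays) and 0.249 to 0.388 on the other 6 arrays (high-score arrays). Values within each kind are therefore given beside the medians. All 7 melanocyte markers with a probe were detected, their summed signal was 22954.5 to 26277.5 on the untreated arrays and 16295.4 to 17666.1 on the HGF 6 h arrays, and its part in the results below was not tested. Of the epithelial, fibroblast and immune markers, CDH1, EPCAM, KRT19, COL1A1, COL1A2, COL3A1, PDGFRB, CD3E and CD14 were detected on no array. The others with a probe were detected, KRT18 on 10 arrays, KRT8 on 9, ACTA2 on 9 and PTPRC on 5.

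Ribosomes are made in the nucleolus, where RNA polymerase I transcribes a long precursor RNA that is modified by guide RNA-protein particles, cut at defined sites and folded together with ribosomal proteins into a small (40S) and a large (60S) subunit. Box C/D particles direct ribose methylation and box H/ACA particles direct pseudouridylation, while the small subunit processome and a succession of large subunit assembly factors carry out cleavage and folding. Genes for these proteins are known to be expressed at higher levels in growing cells and include known targets of MYC, which binds the E-box CACGTG together with its partner MAX.

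To show that motif in the regulatory sequence of genes that changed, the promoters of PES1, UTP14A and SURF6 are printed, the 3 members with the smallest p in the comparison of HGF 6 h with untreated cells among those whose promoter held it. Each is the window from 250 bases before to 50 bases after the start site in the RefSeq promoter table for GRCh38.p14, 5′ to 3′ on the gene's strand, with CACGTG in capitals. PES1 lies at chr22:30591861-30592160 on the minus strand, UTP14A at chrX:129905914-129906213 on the plus strand and SURF6 at chr9:133336139-133336438 on the minus strand.
PES1: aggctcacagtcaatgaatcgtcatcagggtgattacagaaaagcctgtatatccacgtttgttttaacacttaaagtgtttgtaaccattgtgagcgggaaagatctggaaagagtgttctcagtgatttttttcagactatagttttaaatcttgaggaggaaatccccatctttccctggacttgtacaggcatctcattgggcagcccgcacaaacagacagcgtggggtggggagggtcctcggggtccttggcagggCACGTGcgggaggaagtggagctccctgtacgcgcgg
UTP14A: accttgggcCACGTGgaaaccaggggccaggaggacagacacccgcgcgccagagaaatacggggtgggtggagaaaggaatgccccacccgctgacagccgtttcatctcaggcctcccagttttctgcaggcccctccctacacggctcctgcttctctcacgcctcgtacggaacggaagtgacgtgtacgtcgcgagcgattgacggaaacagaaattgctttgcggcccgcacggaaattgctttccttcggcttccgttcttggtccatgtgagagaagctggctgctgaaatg
SURF6: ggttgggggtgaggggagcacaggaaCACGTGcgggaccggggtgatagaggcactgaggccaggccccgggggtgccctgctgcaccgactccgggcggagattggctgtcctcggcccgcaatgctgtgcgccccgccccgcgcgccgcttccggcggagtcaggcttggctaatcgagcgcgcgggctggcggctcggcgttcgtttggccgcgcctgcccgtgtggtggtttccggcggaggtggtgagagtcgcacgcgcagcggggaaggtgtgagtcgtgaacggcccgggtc
The motif began at position 14 counted from the start site in PES1, at -241 in UTP14A and at -224 in SURF6. The motif is its own reverse complement, so both strands were searched at once.

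Of the 40 member genes in the promoter table, 22 (55.0%) held CACGTG in the window. These are not the same 40 as the measured genes, of which 36 were in the table and 19 (52.8%) held the motif. The share was 8.77% of all 27305 genes in the table, 10.9% of the 15843 protein-coding genes and 12.9% of the 8728 genes that also had a kept probe. A gene was counted when the window of any of its start sites held the motif. Factors of the small subunit had it most often, in 10 of 13 genes. The 25 sites in member promoters were not spread evenly, since 19 began within 50 bases of the start site and 16 began downstream of it. Positions of the motif in the promoters of other genes were not examined, so this is not shown to be particular to the members. A match of letters is a description and not evidence of binding. At 6 h of HGF the median log2 difference from untreated cells was 0.59 in the 19 measured members that held it and 0.63 in the 17 that did not. Of these, 7 and 6 were called higher by limma at 6 h, where 0.97% of all kept probes were. The table had no entry for BOP1, NOP58, RRP12, RRS1, RRP1B and NOLC1.

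**Figure D1:**
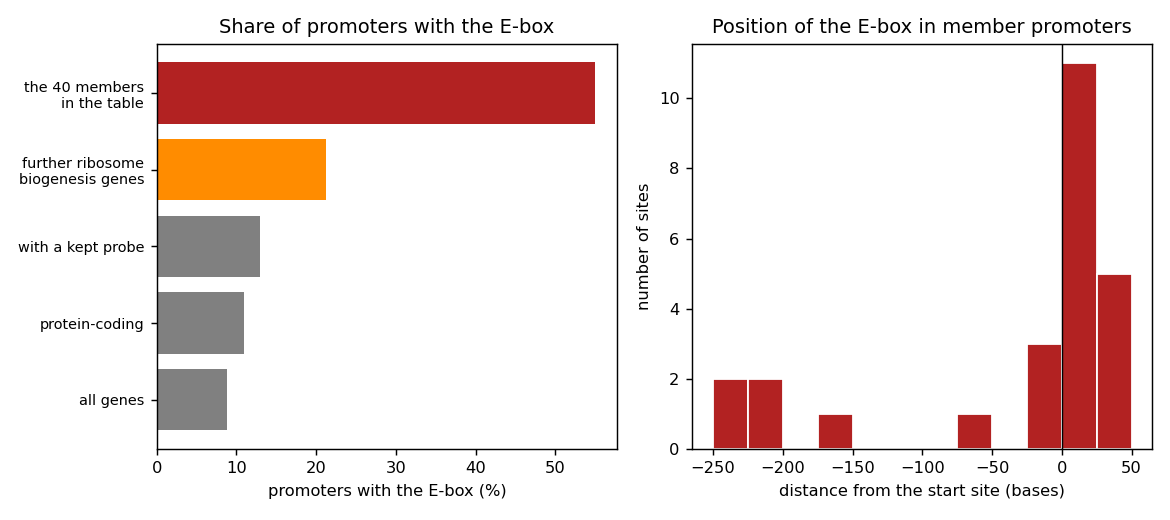
Left, share of genes (%) with the E-box in the window from 250 bases before to 50 bases after the start site, for the members, for further ribosome biogenesis genes and for 3 reference sets. Right, number of sites by distance from the start site in bases, in member promoters. The members' share was 55.0% and most sites lie just downstream of the start site.

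Taken by their median, the 40 measured ribosome biogenesis genes were higher 6 h after HGF than in untreated cells and lower again at 24 h. The list was chosen with earlier results of these data known, so its counts are no independent test of the pathway. In 86 further genes of the pathway, described below, the median log2 difference at 6 h was 0.23. Of these, 2 were called higher (0.97% of all kept probes). The median log2 signal of the 40 members was 8.34 and 8.45 on the untreated arrays, 8.75 and 8.52 at 1 h, 9.19 and 9.19 at 6 h, 8.22 and 8.37 at 24 h, and 8.54 and 8.28 on the ITGB4 arrays. Both arrays at 6 h were thus above the other 8. Signals are quantile-normalised intensities in arbitrary units, and levels are compared only within a gene. For 27 of the 40 members, both HGF 6 h arrays were above each of the other 8 arrays, against 8.62% of all kept probes. The group mean was highest at 6 h for 32 members, against 28.5% of kept probes.

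**Figure D2:**
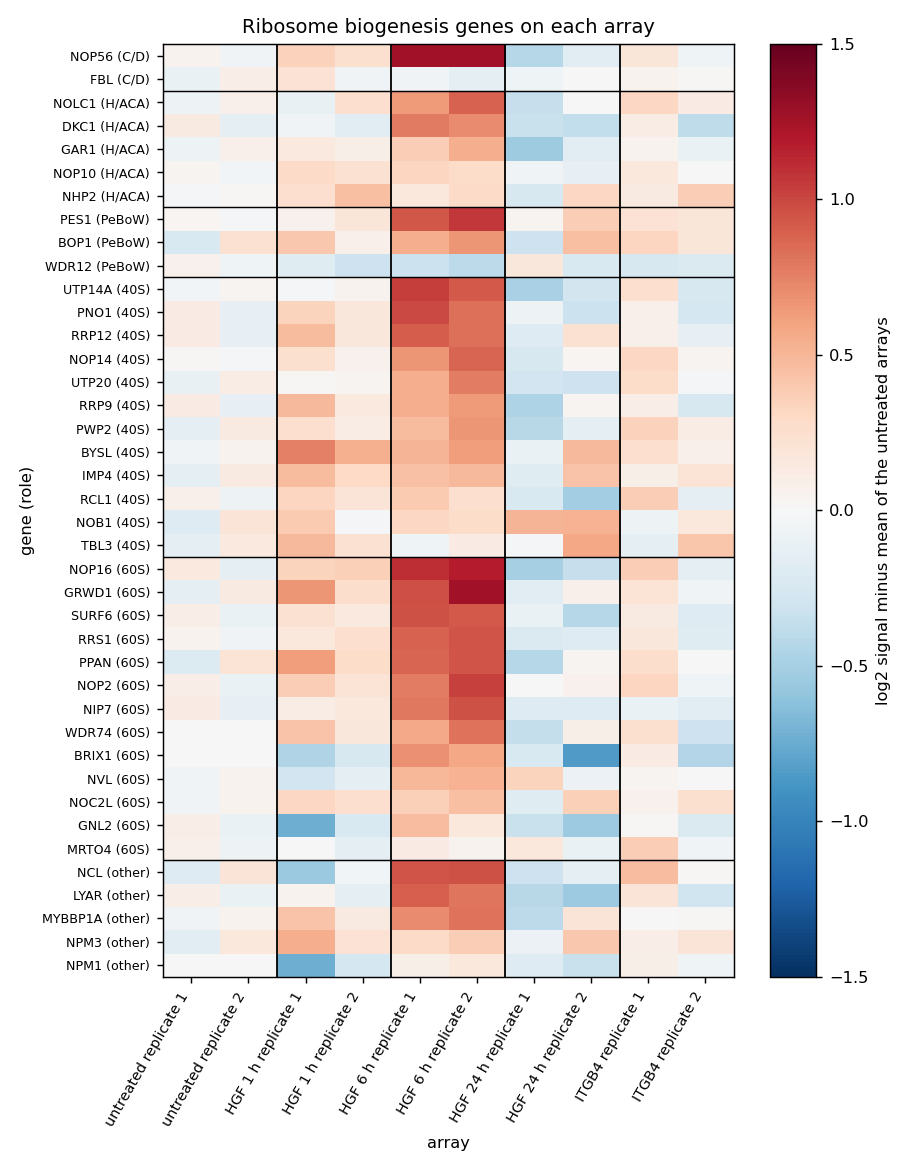
Log2 normalised signal of each member (rows, ordered by role and by the difference at 6 h) on each of the 10 arrays (columns), minus the mean of the 2 untreated arrays of that gene. Both arrays at 6 h are higher for most genes, and WDR12 is lower there.

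To ask which members responded at 6 h, HGF 6 h arrays were compared with untreated arrays by limma, with p-values adjusted over all 14018 kept probes and a call at an adjusted p under 0.05. Of the 40 members 15 rose, 0 fell and 25 were not called, whereas 0.97% of all kept probes were called higher and 0.935% lower. The median log2 difference over the members was 0.64, a 1.56-fold higher signal, against 0.01 over all kept probes. It was 0.64 among the low-score arrays and 0.70 among the high-score arrays. In 36 members both HGF 6 h arrays were above both untreated arrays (20.7% of all kept probes) and in 1, WDR12, both were below (23.9%). By role, 1 of 2 box C/D proteins, 0 of 5 box H/ACA proteins with NOLC1, 1 of 3 members of the PeBoW complex, 4 of 12 small subunit factors, 7 of 13 large subunit factors and 2 of 5 other nucleolar proteins were called, with median differences of 0.58, 0.46, 0.61, 0.58, 0.87 and 0.76. The number of calls rested on each array of the 2 groups. With either array of the 6 h pair left out it was 0, with untreated replicate 2 left out also 0, and with untreated replicate 1 left out 2, in fits that assume the lone array to vary like the other groups, while the median difference stayed between 0.56 and 0.70. With arrays scaled to a common median in place of quantile normalisation 4 members were called, NOP56, NOP16, PES1 and GRWD1, and the all-probe median was then -0.07. With the low-score and high-score arrays as a block, a term chosen after seeing the data, 21 members were called, and the calls over all kept probes went from 267 to 1066.

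**Figure D3:**
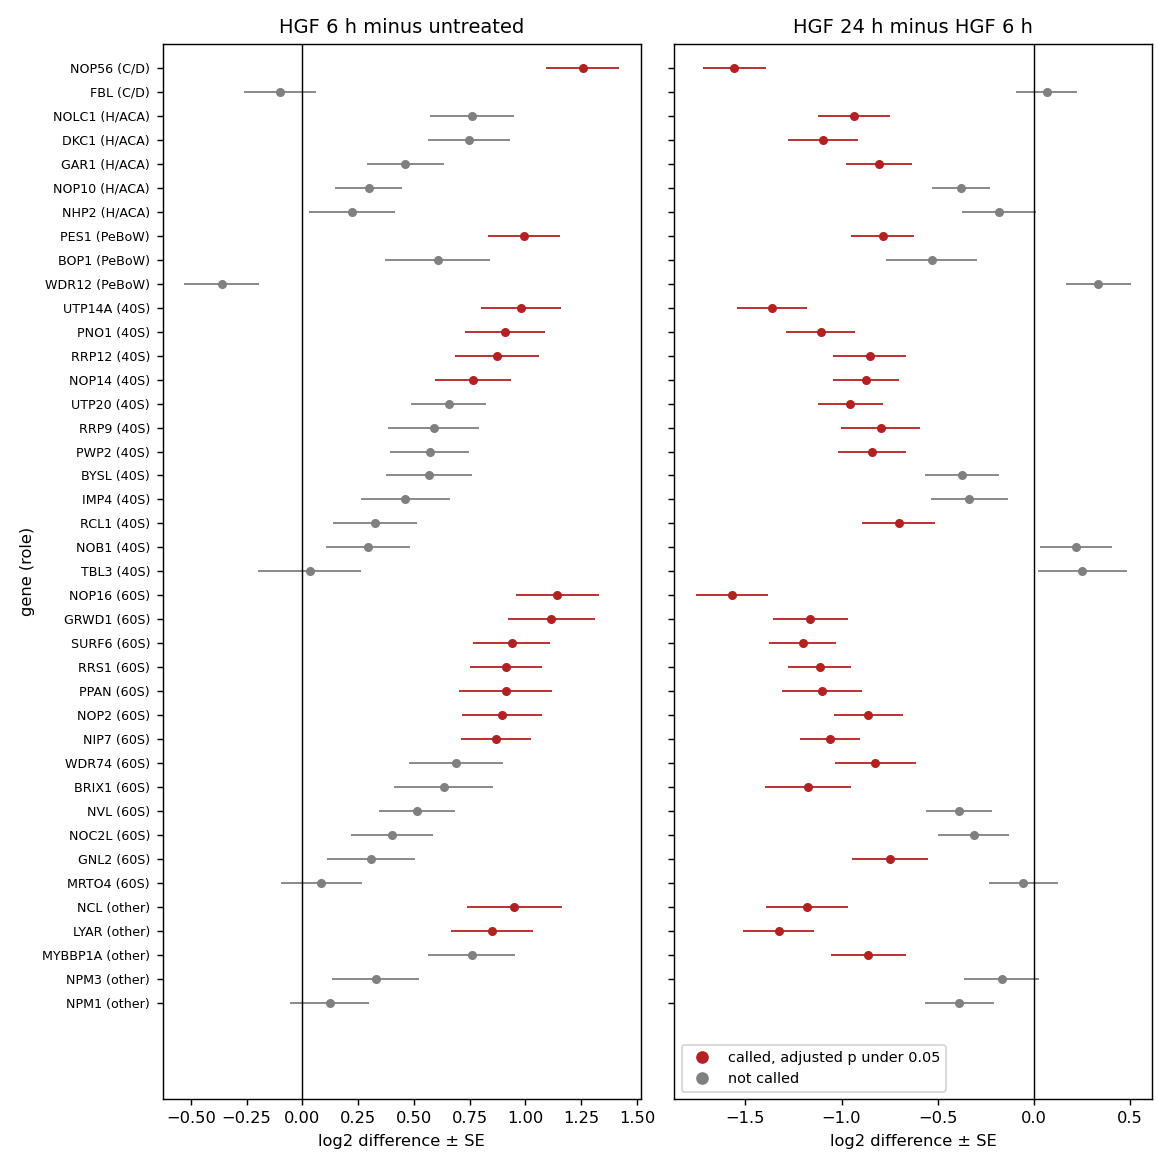
Log2 difference ± SE from the limma fit for each member, HGF 6 h minus untreated on the left and HGF 24 h minus HGF 6 h on the right, with called genes in red and others in grey. Both panels use the same HGF 6 h arrays, so they are not independent. NOP56 and NOP16 have the longest distances from 0 in both.

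Among the box C/D proteins, NOP56, a core protein of the particles that guide ribose methylation, had a signal of 371 and 343 on the untreated arrays, 453 and 422 at 1 h, 852 and 854 at 6 h, 265 and 317 at 24 h and 406 and 342 on the ITGB4 arrays. Both arrays at 6 h were higher than any other array, with no overlap. The log2 difference from untreated cells at 6 h was 1.26 ± 0.16 (SE, adjusted p = 0.0077), and from 6 h to 24 h the level changed by -1.56 ± 0.16 (SE, adjusted p = 0.00071). FBL, the methyltransferase fibrillarin of the same particles, had 2591 and 2967 on the untreated arrays, 3234 and 2673 at 1 h, 2667 and 2507 at 6 h, 2656 and 2758 at 24 h and 2871 and 2802 on the ITGB4 arrays. Its untreated and 6 h arrays overlapped, both 6 h arrays were below both 1 h and both ITGB4 arrays, and the difference from untreated cells at 6 h was -0.10 ± 0.16 (SE, adjusted p = 0.87), the second lowest of the members. Whether the change of NOP56 differed from that of FBL was not tested.

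Of the box H/ACA proteins, none passed the test against untreated cells. DKC1, the pseudouridine synthase dyskerin, had 1848 and 1542 on the untreated arrays, 1628 and 1509 at 1 h, 2902 and 2762 at 6 h, 1345 and 1302 at 24 h and 1822 and 1299 on the ITGB4 arrays. Both values at 6 h were above all others. Its difference at 6 h was 0.75 ± 0.18 (SE, adjusted p = 0.056), and between 24 h and 6 h it was -1.10 ± 0.18 (SE, adjusted p = 0.004). NOLC1, a chaperone of guide particles, was dim, with 106 and 118 on the untreated arrays, 104 and 133 at 1 h, 174 and 206 at 6 h, 87.6 and 112 at 24 h and 138 and 122 on the ITGB4 arrays, and the first 24 h array did not reach the detection score. The 6 h values were the highest, with a difference of 0.76 ± 0.19 (SE, adjusted p = 0.057) from untreated cells and of -0.94 ± 0.19 (SE, adjusted p = 0.0091) between 24 h and 6 h. NHP2, a core protein of the particle, had 1934 and 1980.2 on the untreated arrays, 2326 and 2678 at 1 h, 2176 and 2393 at 6 h, 1661 and 2434 at 24 h and 2148 and 2528 on the ITGB4 arrays. Here the arrays at 1 h, 6 h and 24 h overlapped, and the difference at 6 h was 0.22 ± 0.19 (SE, adjusted p = 0.68). The other core proteins GAR1 and NOP10 differed by 0.46 ± 0.17 and 0.30 ± 0.15 at 6 h. The 2 probes of GAR1 differed in call between 24 h and 6 h: the brighter fell by 0.81 ± 0.17 (adjusted p = 0.012) and the dimmer was at -0.37 (adjusted p = 0.23).

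In the PeBoW complex, which is needed for maturation of the large subunit RNA, 1 of 3 members was called at 6 h, and differences between the members were not tested. PES1 had 276 and 263 on the untreated arrays, 281 and 306 at 1 h, 512 and 560.1 at 6 h, 276 and 349 at 24 h and 314 and 304 on the ITGB4 arrays. The 6 h arrays stood above all others, and the difference was 0.99 ± 0.16 (SE, adjusted p = 0.015) at 6 h and -0.79 ± 0.16 (SE, adjusted p = 0.011) between 24 h and 6 h. BOP1 had a difference of 0.61 ± 0.24 (SE, adjusted p = 0.21) at 6 h, and its arrays at 24 h were far apart, at 1228 and 2079. WDR12 had 901 and 827 on the untreated arrays, 760.2 and 695 at 1 h, 688 and 657 at 6 h, 973 and 739 at 24 h and 732 and 740.4 on the ITGB4 arrays. Both untreated arrays were above both arrays at 6 h, and the difference of -0.36 ± 0.17 (SE, adjusted p = 0.32) was the lowest of the members.

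Small subunit factors came next. UTP14A, a component of the small subunit processome, had 292 and 307 on the untreated arrays, 295 and 310.2 at 1 h, 614 and 567 at 6 h, 213 and 248 at 24 h and 357 and 254 on the ITGB4 arrays. The 1 h arrays differed from the untreated ones by 0.02 on the log2 scale, and both 6 h arrays were above the rest. The difference at 6 h was 0.98 ± 0.18 (SE, adjusted p = 0.022), followed by -1.36 ± 0.18 (SE, adjusted p = 0.0015) from 6 h to 24 h. PNO1, which acts with the nuclease NOB1 at the end of small subunit RNA maturation, had 397 and 334 on the untreated arrays, 457 and 409.6 at 1 h, 721 and 646 at 6 h, 344 and 291 at 24 h and 384 and 303 on the ITGB4 arrays. No other array reached the 6 h values, and the difference was 0.91 ± 0.18 (SE, adjusted p = 0.027) at 6 h and -1.11 ± 0.18 (SE, adjusted p = 0.0035) between 24 h and 6 h. RRP12, a late factor of small subunit precursors, had 247 and 208 on the untreated arrays, 314 and 256 at 1 h, 427 and 404 at 6 h, 198 and 266 at 24 h and 239 and 208 on the ITGB4 arrays, with both arrays at 6 h above the rest. It differed by 0.87 ± 0.19 (SE, adjusted p = 0.034) at 6 h and by -0.85 ± 0.19 (SE, adjusted p = 0.014) from 6 h to 24 h.

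NOP14, an early small subunit factor, had 213 and 207 on the untreated arrays, 248 and 220.0 at 1 h, 332 and 384 at 6 h, 178 and 214 at 24 h and 261 and 216 on the ITGB4 arrays. Its 6 h arrays were again the highest, with a difference of 0.77 ± 0.17 (SE, adjusted p = 0.04) at 6 h and -0.87 ± 0.17 (SE, adjusted p = 0.0083) between 24 h and 6 h. UTP20, a large component of the processome, lay close to the detection limit, with 95.0 and 111 on the untreated arrays, 104 and 106 at 1 h, 149.7 and 175 at 6 h, 84.0 and 82.8 at 24 h and 124 and 100.4 on the ITGB4 arrays. Neither array at 24 h reached the detection score, so only a bound can be given there: the 6 h mean was at least 1.76-fold higher than at 24 h, where the bound is the lowest detected signal of each array, and the fit's adjusted p was 0.005. Against untreated cells UTP20 was at 0.66 ± 0.17 (SE, adjusted p = 0.066). TBL3, a processome protein, had 315 and 385 on the untreated arrays, 489 and 408 at 1 h, 334 and 379.9 at 6 h, 345 and 521 at 24 h and 317 and 466 on the ITGB4 arrays. Its untreated and 6 h arrays overlapped, and the difference was 0.03 ± 0.23 (SE, adjusted p = 0.98). NOB1 was the member whose group mean was highest at 24 h, with 287 and 376 on the untreated arrays and 466 and 470.0 at 24 h, a difference of 0.51 ± 0.19 (SE, adjusted p = 0.86). The remaining small subunit factors RRP9, PWP2, BYSL, IMP4 and RCL1 lay between 0.33 (RCL1) and 0.59 (RRP9) at 6 h, and none was called.

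Large subunit factors gave 7 of the 15 calls at 6 h. NOP16, a nucleolar large subunit protein, had 1039 and 854 on the untreated arrays, 1188 and 1208 at 1 h, 2025 and 2138 at 6 h, 665 and 739 at 24 h and 1221 and 862 on the ITGB4 arrays. Both 6 h arrays exceeded all others. The difference was 1.14 ± 0.19 (SE, adjusted p = 0.014) at 6 h and -1.57 ± 0.19 (SE, adjusted p = 0.0011) from 6 h to 24 h, the largest fall of any member. GRWD1, a chaperone that binds ribosomal and histone proteins, had 148 and 179 on the untreated arrays, 257 and 196 at 1 h, 318 and 391 at 6 h, 145 and 172 at 24 h and 188 and 157 on the ITGB4 arrays. The 1 h arrays lay between the untreated and the 6 h arrays, and the difference was 1.11 ± 0.20 (SE, adjusted p = 0.019) at 6 h and -1.16 ± 0.20 (SE, adjusted p = 0.004) between 24 h and 6 h. SURF6, a nucleolar matrix protein, had 492 and 431 on the untreated arrays, 538 and 508 at 1 h, 893 and 870.4 at 6 h, 428 and 343 at 24 h and 503 and 404 on the ITGB4 arrays. The 6 h values did not overlap any other group, with a difference of 0.94 ± 0.17 (SE, adjusted p = 0.022) at 6 h and -1.20 ± 0.17 (SE, adjusted p = 0.0024) from 6 h to 24 h.

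RRS1, which helps to bring the 5S RNA into the large subunit precursor, had 186 and 174 on the untreated arrays, 201 and 214 at 1 h, 332 and 345 at 6 h, 155 and 158 at 24 h and 202 and 159 on the ITGB4 arrays. Duplicates were close in each HGF group and the 6 h pair was highest, with a difference of 0.91 ± 0.16 (SE, adjusted p = 0.019) at 6 h and -1.11 ± 0.16 (SE, adjusted p = 0.0024) between 24 h and 6 h. NIP7, a factor of precursor RNA processing, had 429 and 363 on the untreated arrays, 428 and 440.2 at 1 h, 680.3 and 764 at 6 h, 347 and 346 at 24 h and 368 and 350.2 on the ITGB4 arrays. Again only the 6 h arrays stood apart, at 0.87 ± 0.16 (SE, adjusted p = 0.019) from untreated cells, and the change to 24 h was -1.06 ± 0.16 (SE, adjusted p = 0.0025). NOP2, a methyltransferase of large subunit RNA, had 165 and 143 on the untreated arrays, 197 and 176 at 1 h, 260.0 and 312 at 6 h, 153 and 161 at 24 h and 192 and 147 on the ITGB4 arrays. All arrays but those at 6 h were under 200 units, and the difference was 0.89 ± 0.18 (SE, adjusted p = 0.03) at 6 h and -0.86 ± 0.18 (SE, adjusted p = 0.011) between 24 h and 6 h.

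PPAN, an early large subunit factor, had 271 and 358 on the untreated arrays, 482 and 376 at 1 h, 571 and 601 at 6 h, 232 and 321 at 24 h and 375 and 312 on the ITGB4 arrays. The 1 h arrays were above the untreated ones and below those at 6 h, with a difference of 0.91 ± 0.21 (SE, adjusted p = 0.043) at 6 h and -1.10 ± 0.21 (SE, adjusted p = 0.0071) from 6 h to 24 h. WDR74, a partner of the ATPase NVL, had 399.5 and 404 on the untreated arrays, 542 and 453 at 1 h, 594 and 705 at 6 h, 314 and 426 at 24 h and 476 and 325 on the ITGB4 arrays. Its 6 h arrays were the highest, but the difference of 0.69 ± 0.21 (SE, adjusted p = 0.12) did not pass the test, while the fall to 24 h did, at -0.82 ± 0.21 (SE, adjusted p = 0.03). MRTO4, a placeholder for a stalk protein of the large subunit, had 2174 and 1942 on the untreated arrays, 2053 and 1857 at 1 h, 2234 and 2127 at 6 h, 2296 and 1917 at 24 h and 2663 and 1986 on the ITGB4 arrays. The highest array was an ITGB4 one, the untreated and 6 h groups overlapped, and the difference at 6 h was 0.09 ± 0.18 (SE, adjusted p = 0.91). The others not called at 6 h were BRIX1, GNL2, NOC2L and NVL, with differences from 0.31 (GNL2) to 0.63 (BRIX1).

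Among the other nucleolar proteins, NCL, the abundant RNA-binding protein nucleolin, had 146 and 191 on the untreated arrays, 114 and 163 at 1 h, 321 and 325 at 6 h, 135 and 151 at 24 h and 230.1 and 169 on the ITGB4 arrays. The lowest array was at 1 h and both 6 h arrays were above the rest, with a difference of 0.95 ± 0.21 (SE, adjusted p = 0.04) at 6 h and -1.18 ± 0.21 (SE, adjusted p = 0.0057) from 6 h to 24 h. LYAR, a nucleolar cell growth regulator, had 406 and 355 on the untreated arrays, 394 and 346 at 1 h, 705 and 663 at 6 h, 285 and 260.5 at 24 h and 435 and 309 on the ITGB4 arrays. Its 6 h arrays stood apart and its 24 h arrays were the lowest, with differences of 0.85 ± 0.18 (SE, adjusted p = 0.034) at 6 h and -1.33 ± 0.18 (SE, adjusted p = 0.002) from 6 h to 24 h. MYBBP1A, a nucleolar protein that binds transcription factors, had 291 and 313 on the untreated arrays, 407 and 332 at 1 h, 493 and 529.9 at 6 h, 229.7 and 344 at 24 h and 301 and 306 on the ITGB4 arrays. The 6 h arrays were above all others, at 0.76 ± 0.20 (SE, adjusted p = 0.066) from untreated cells, which did not pass the test, and the step to 24 h was -0.86 ± 0.20 (SE, adjusted p = 0.016). NPM1, the histone and ribosomal protein chaperone nucleophosmin, had 6626 and 6669 on the untreated arrays, 3994 and 5558 at 1 h, 7056 and 7413 at 6 h, 5811 and 5262 at 24 h and 7056 and 6336 on the ITGB4 arrays. Its arrays at 1 h included the lowest value, the second ITGB4 array was below both untreated ones, and the difference at 6 h was 0.12 ± 0.18 (SE, adjusted p = 0.85). NPM3, a relative of NPM1, was at 0.33 ± 0.20 at 6 h.

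**Figure D4:**
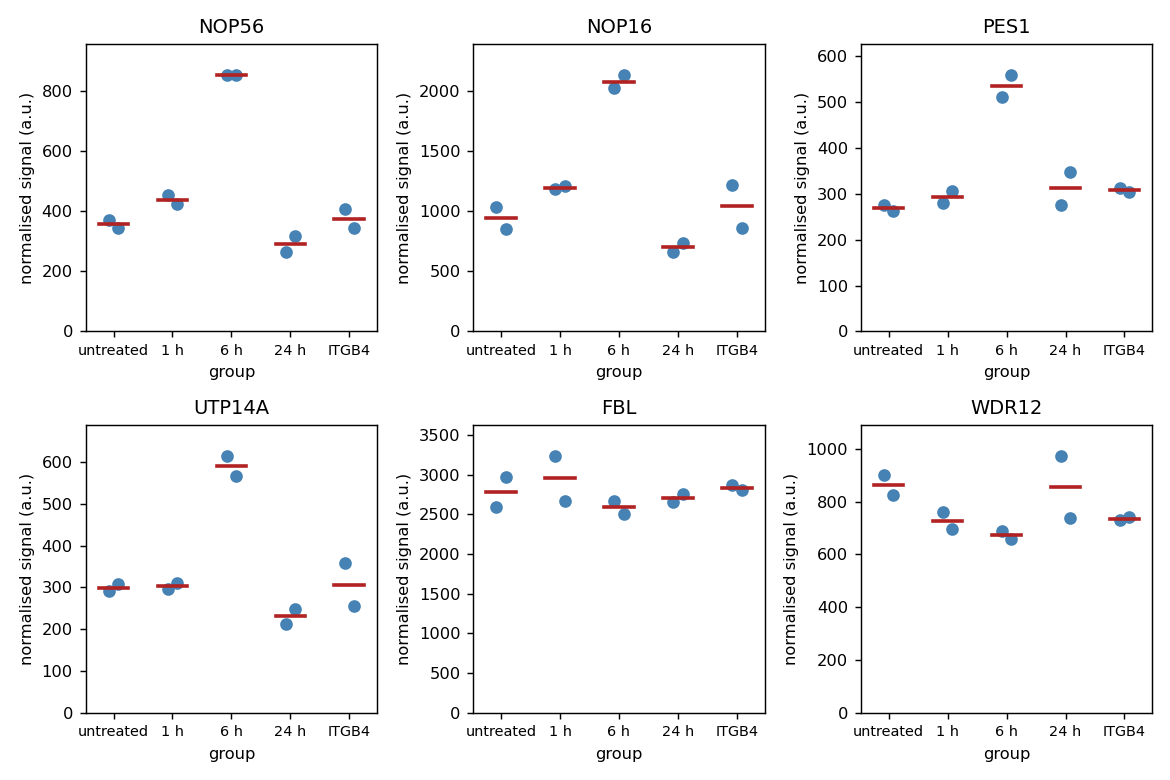
Normalised signal (arbitrary units, axes from 0) of 6 members on the 10 arrays, with points for arrays and bars for the arithmetic mean of each pair. Shown are the members with the largest difference at 6 h in 4 role groups (NOP56, NOP16, PES1, UTP14A) and the 2 with the lowest (FBL, WDR12), and the 6 h points lie above all others in the first 4.

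After 1 h of HGF, differences from untreated cells were small and did not pass the test. None of the 40 members was called by limma, nor was any of the 14018 kept probes (0.0% in either direction), while 5 members and 1897 probes had an unadjusted p under 0.05. These 5 were BYSL at 0.65 ± 0.19, a small subunit factor, GRWD1 at 0.46 ± 0.20, PPAN at 0.45 ± 0.21, NPM1 at -0.50 ± 0.18 and the large subunit GTPase GNL2 at -0.48 ± 0.20 on the log2 scale, with adjusted p from 0.21 to 0.37. BYSL had 188 and 202 on the untreated arrays and 328 and 282 at 1 h. GNL2 had 1403 and 1214 on the untreated arrays and 787 and 1114 at 1 h. The 1 h arrays of BYSL were above and those of GNL2 below the untreated pair. The member median was 0.20 against 0.04 over all probes, 0.23 among low-score and 0.09 among high-score arrays. In 23 members both 1 h arrays were above both untreated ones (24.1% of kept probes), and in 5, BRIX1, GNL2, NPM1, NVL and WDR12, both were below (20.1%). All 12 small subunit factors were above 0, from 0.02 to 0.65, as were 7991 of the 14018 kept probes. Among the high-score arrays 9 of the 12 were above 0. In the further small subunit list described below, 15 of 35 genes were above 0, with a median of -0.05.

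To follow the same genes between the time points, HGF 6 h was compared with HGF 1 h. Of the 40 members 13 rose and 0 fell, against 2.24% and 2.43% of all kept probes. The largest difference was that of NCL, at 1.25 ± 0.21 (SE, adjusted p = 0.0096), followed by BRIX1 at 0.98 ± 0.22 (SE, adjusted p = 0.027), NOP56 at 0.96 ± 0.16 (SE, adjusted p = 0.0095) and UTP14A at 0.96 ± 0.18 (SE, adjusted p = 0.014). The other 9 were PES1, LYAR, NIP7, DKC1, RRS1, SURF6, NOP16, NVL and GNL2, between 0.71 (RRS1) and 0.89 (LYAR). Of the 13, 7 were large subunit factors. BRIX1, a large subunit factor that binds precursor RNA, had 1349 and 1562 at 1 h and 2983 and 2758 at 6 h. NVL, an ATPase of the same subunit's maturation, had 247 and 274 at 1 h and 426 and 434 at 6 h. Both genes were lower at 1 h than in untreated cells on both arrays, with values that did not pass the test (-0.35 and -0.21). The member median was 0.58 between 6 h and 1 h against -0.01 over all probes, 0.35 among low-score and 0.65 among high-score arrays. No member was called when either 6 h array or the first 1 h array was left out, and 7 were when the second 1 h array was. With arrays scaled to a common median 5 were called, and the member median was 0.41. With the low-score and high-score arrays as a block 20 were called, and the calls over all kept probes went from 654 to 1690.

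Between 6 h and 24 h most members fell, in a comparison that shares the 6 h arrays with both comparisons above. Of the 40 members 26 fell and 0 rose, against 4.07% of kept probes called lower and 4.24% called higher. The median difference was -0.83, a signal at 0.561 of the 6 h level, against -0.01 over all probes. It was -0.90 among low-score and -0.72 among high-score arrays. In 32 members both 24 h arrays were below both 6 h arrays (20.3% of kept probes), and in 2, NOB1 and WDR12, both were above (22.5%). By role, 1 of 2 box C/D proteins, 3 of 5 box H/ACA proteins with NOLC1, 1 of 3 PeBoW members, 8 of 12 small subunit factors, 10 of 13 large subunit factors and 3 of 5 other nucleolar proteins fell. Members called here whose values on all arrays were not given above were BRIX1 at -1.17 ± 0.22 (SE, adjusted p = 0.0071), the processome proteins PWP2 at -0.84 ± 0.18 (SE, adjusted p = 0.011) and RRP9 at -0.80 ± 0.21 (SE, adjusted p = 0.032), GNL2 at -0.75 ± 0.20 (SE, adjusted p = 0.035), RCL1 at -0.70 ± 0.19 (SE, adjusted p = 0.038) and GAR1. BRIX1 had 2983 and 2758 at 6 h and 1576 and 1026 at 24 h, so its pairs did not overlap although the 24 h arrays lay apart. Leaving out HGF 6 h replicate 2 gave 12 calls, and the other 9 arrays left out in turn gave 18 to 26.

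At 24 h no member and no kept probe was called against untreated cells (0.0% in either direction), and 5 members and 800 probes had an unadjusted p under 0.05. These were NOB1 at 0.51 ± 0.19, BRIX1 at -0.54 ± 0.22, LYAR at -0.48 ± 0.18, GNL2 at -0.44 ± 0.20 and NOP16 at -0.43 ± 0.19, each with an adjusted p of 0.86. The member median was -0.16 against 0.01 over all probes, with 27 members below 0. It was -0.21 among low-score and -0.09 among high-score arrays. In 16 members both 24 h arrays were below both untreated ones (14.7% of kept probes), and in 2, NOB1 and PES1, both were above (14.9%). The 24 h arrays also lay furthest apart: the median absolute log2 difference between duplicates over the members was 0.28 at 24 h (0.27 over all probes), against 0.10 at 6 h (0.18), 0.17 at 1 h (0.20), 0.19 in untreated cells (0.19) and 0.24 in ITGB4 cells (0.15).

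In cells transduced with ITGB4 the members were measured against the same untreated arrays. ITGB4 itself was higher by 6.56 on the log2 scale and was the single probe called (0.00713% of kept probes), as its label says. No member was called, none had an unadjusted p under 0.05 against 117 of all probes, and differences ran from -0.23 ± 0.17 for WDR12 to 0.25 ± 0.19 for NHP2. The median was 0.07 against 0.00 over all probes. In 33 of 40 members the ITGB4 and untreated arrays overlapped. In 6 members both ITGB4 arrays were above both untreated ones (13.6% of kept probes) and in 1, WDR12, both were below (12.1%). The first ITGB4 array was above the second in 32 of 40 members. The SE of a member's difference was 0.15 to 0.24 with 2 arrays a group, so a p above the threshold does not show that its level was the same.

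**Figure D5:**
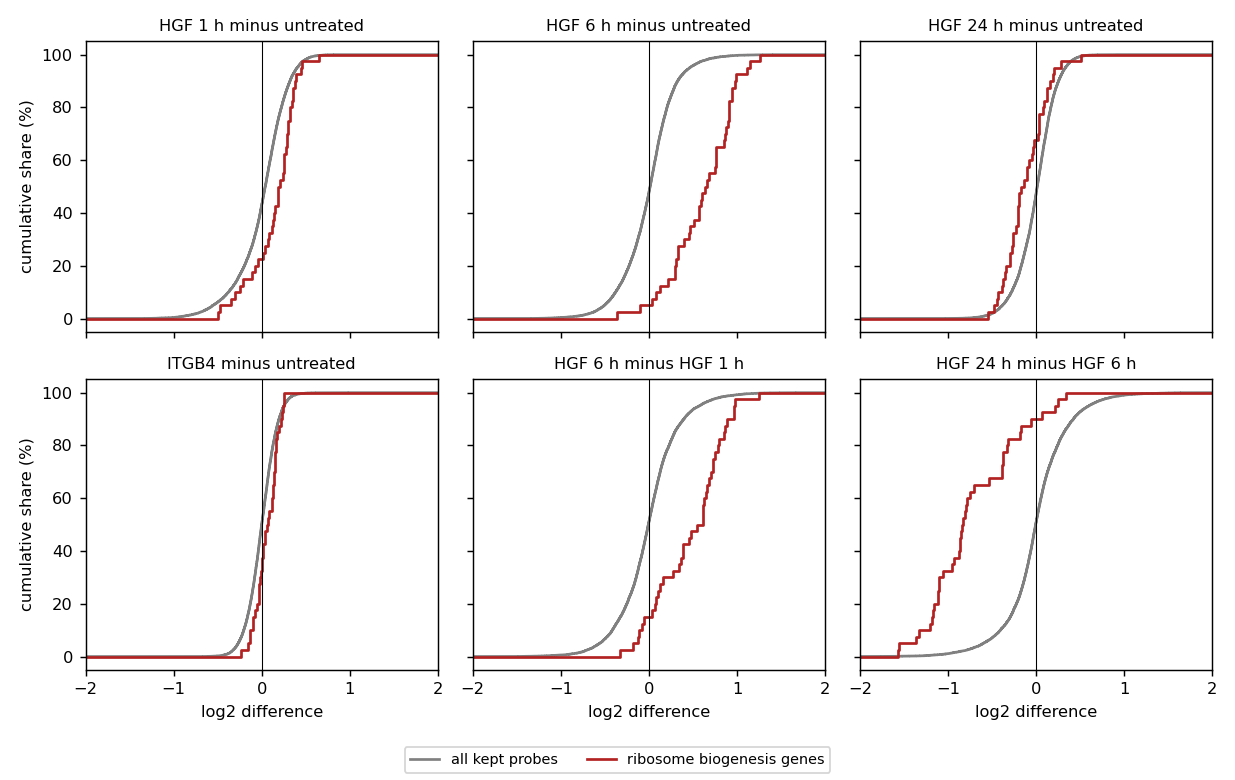
Cumulative share (%) of genes by log2 difference for the 40 members (red) and all 14018 kept probes (grey) in the 6 comparisons, drawn from -2 to 2 so that a few probes lie outside. The red curve lies to the right at 6 h (member median 0.64), to the left between 24 h and 6 h (-0.83) and near the grey one in ITGB4 cells (0.07).

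Other genes of the pathway were followed in 3 further lists, of which 35 of 40 small subunit factors, 30 of 35 large subunit factors and 21 of 24 snoRNP and exosome factors had a kept probe. At 6 h against untreated cells 2 of these 86 genes rose and 0 fell (0.97% and 0.935% of all kept probes), with a median of 0.23 and 71 above 0. They were RRP36, a small subunit factor, at 0.91 ± 0.17 (SE, adjusted p = 0.022), and CCDC86, a nucleolar protein of the large subunit list, at 0.97 ± 0.21 (SE, adjusted p = 0.035). Medians were 0.26 for the small subunit list, 0.29 for the large subunit list and 0.06 for the snoRNP and exosome list. From 1 h to 6 h 13 rose and 0 fell (2.24% and 2.43% of kept probes), led by the processome proteins WDR75 (1.63), BMS1 (0.92) and NOL11 (1.16) and by the large subunit factors PAK1IP1 (0.96), GTPBP4 (0.73) and NIFK (1.16), with ZNHIT6 (0.81) in the snoRNP list. From 6 h to 24 h 22 fell and 0 rose (4.07% and 4.24% of kept probes), 11 in the small subunit, 10 in the large subunit and 1 in the snoRNP and exosome list. The leading ones were UTP4 (-0.93), LTV1 (-1.29) and RRP36 (-0.91), MAK16 (-1.39), NIFK (-1.44) and GTPBP4 (-0.83), and the exosome subunit EXOSC3 (-0.77). At 1 h, at 24 h and in ITGB4 cells none was called. Genes named for the step from 1 h to 6 h were all below untreated cells at 1 h, from -0.75 (WDR75) to -0.22 (GTPBP4). The E-box was present in 21.2% of the 85 further genes with a promoter sequence.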

How the data were processed

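Total RNA of 10 samples was labelled and hybridised to 1 Illumina array each. The deposited intensities are the mean bead signals that the authors read with BeadStudio 1.5.1.3, neither background subtracted nor normalised between arrays, and the deposited detection score was used as the authors did, keeping probes at 0.99 or more on at least 1 array (14018 of 24105, 58.2%). Members were read by 9 to 63 beads. A second deposited table gives intensities after the authors' background subtraction and rank-invariant normalisation. It was used as an alternative with values under 50 set to 50, since its column for ITGB4 replicate 2 did not follow that array's scanner values (Spearman correlation 0.968). Control probes (22) and probes lacking a signal (9) were left out. Probes were named by the platform annotation, 18758 with 1 gene symbol and 5347 with none, with 18688 symbols updated through the Entrez number.

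Intensities were quantile normalised and set on the log2 scale without an offset, and 5 group means were fitted over all 10 arrays with limma 3.58.1 in R 4.3.3 (5 residual and 8.16 prior degrees of freedom). The 6 contrasts were tested two-sided with Benjamini-Hochberg adjustment over all kept probes, and errors of differences are SEs of the moderated fit. P-values set each difference against the spread between duplicates, pooled over the 5 groups and moderated over all kept probes. The script was tested on simulated data. The detection limit corresponded to 89.6 units after normalisation. Alternatives were normexp with an offset of 50, median scaling, the value table, a floor at 2 times the detection limit, no filter, detection on all 10 arrays, the unmoderated variance, the replicate number or the array background as a block, and leaving out each array.

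The members, the further lists and the tests were chosen with earlier results of these data known. Values on all arrays are given for members called in at least 1 contrast, up to 20 by the smallest p at 6 h, and for the members with the smallest and largest difference at 6 h in each role group. Further genes were named when called, up to 3 per list and contrast by the smallest p. Promoters printed were up to 3 of called members with CACGTG, by the smallest p at 6 h. Only probes with a gene symbol could be counted as members, and no probe sequences were used.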

Additional observations from a re-analysis of the deposited data

Results flagged for a closer look

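By limma's test of the difference between times of HGF treatment, adjusted over all kept probes, 27 members were called in at least 1 comparison. Between 6 h and 1 h there were 13, all higher, where 2.24% of kept probes were called higher and 2.43% lower. Between 24 h and 6 h there were 26, all lower, where 4.07% of kept probes were called lower and 4.24% higher. The difference in log2 level between 6 h and 1 h was 0.96 for NOP56, 0.85 for DKC1, 0.87 for PES1, 0.96 for UTP14A, 0.80 for NOP16, 0.71 for RRS1, 0.73 for NIP7, 0.79 for GNL2, 0.98 for BRIX1, 0.75 for SURF6, 0.72 for NVL, 1.25 for NCL and 0.89 for LYAR. GNL2 was at 1.19 among low-score and 0.39 among high-score arrays. Its duplicates at 1 h were 787 and 1114.

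Between 24 h and 6 h the difference was -1.56 for NOP56, -0.81 for GAR1, -1.10 for DKC1, -0.94 for NOLC1 and -0.79 for PES1. In the small subunit group it was -0.87 for NOP14, -0.80 for RRP9, -0.85 for RRP12, -1.36 for UTP14A, -0.95 for UTP20, -0.70 for RCL1, -1.11 for PNO1 and -0.84 for PWP2. In the large subunit group it was -1.57 for NOP16, -0.86 for NOP2, -1.11 for RRS1, -1.06 for NIP7, -0.75 for GNL2, -1.10 for PPAN, -1.16 for GRWD1, -1.17 for BRIX1, -1.20 for SURF6 and -0.82 for WDR74. It was -1.18 for NCL, -1.33 for LYAR and -0.86 for MYBBP1A. UTP20 was not detected on either array at 24 h, so its fitted value there is no bound.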

How the results depend on the processing

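Each of the 15 members called at 6 h kept a positive difference from untreated cells under every alternative run. Among the 15, 11 lost their call with median scaling, 11 with signals floored at 2 times the detection limit and 5 with the deposited value table. Without a filter on dim probes 2 lost it, with the planned score block 2 and with the ordinary pooled variance 15. The count of members called at 6 h against untreated cells was 4 with median scaling, 4 with floored signals and 0 with the ordinary variance. Between 6 h and 1 h it was 5, 1 and 0 under these settings. It was 21 with the replicate number as a block and 20 with the low-score and high-score block. Between 24 h and 6 h it was 12 with floored signals and 3 with the ordinary variance. At 1 h the planned array background block gave 1 call. The member median moved to 0.41 between 6 h and 1 h with median scaling. In the value table with low values set to 50 it moved to 0.90 at 6 h, 0.75 between 6 h and 1 h and -1.15 between 24 h and 6 h. Over the 7451 probes above 50 on all arrays of that table, the all-probe median at 6 h was 0.12. The 37 members among them had medians of 0.88 at 6 h, 0.67 between 6 h and 1 h and -1.15 between 24 h and 6 h. The cause was not tested. The ordinary variance has fewer degrees of freedom, and the floor of 179.1 units sets dim signals equal. Signals of NOP56, PES1, RRP12, UTP14A, PNO1, NOP16, NIP7, PPAN, SURF6 and LYAR were above that floor on every array.

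Leaving out 1 array at a time, members called ranged from 0 to 18 at 6 h, 0 to 18 between 6 h and 1 h and 12 to 26 between 24 h and 6 h, and were 0 throughout at 1 h, at 24 h and in ITGB4 cells. The member median ranged from 0.15 to 0.25 at 1 h, 0.56 to 0.70 at 6 h, -0.22 to -0.09 at 24 h, -0.05 to 0.14 in ITGB4 cells, 0.43 to 0.58 between 6 h and 1 h and -0.97 to -0.67 between 24 h and 6 h. Further genes called at 6 h ranged from 0 to 3 in the small subunit list, 0 to 3 in the large subunit list and 0 to 1 in the snoRNP and exosome list.

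For the further small subunit, large subunit and snoRNP and exosome lists, the counts at 6 h were 5, 2 and 1 in the value table, 2, 3 and 1 among probes detected on all 10 arrays, 8, 6 and 1 with the replicate block, 6, 5 and 1 with the background split over all probes and 4, 2 and 0 with the planned background block. The small subunit list had 2 calls after normexp correction and 0 with the ordinary variance. The large subunit list had 0 with median scaling, floored signals, no filter or the ordinary variance. The split over all probes was chosen after seeing the data.

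The replicate numbers were not taken to pair the arrays, since deviations of same-numbered arrays correlated between -0.06 and 0.66 over the group pairs. HGF 1 h with 24 h (0.06) and with ITGB4 (-0.06) were not above 0.1. Untreated with 6 h (0.585) and 6 h with 24 h (0.653) were among the higher ones. In the untreated and HGF groups the replicate numbers and the low-score and high-score arrays are the same split, so the blocks differ only in ITGB4. With the replicate block 22 members were called at 6 h and 26 between 24 h and 6 h. Except for the low-score and high-score block, all-probe calls under the alternatives are not given here, so counts by setting describe the members alone.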
